A study of Homo sapiens with 8 samples.

Results

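The genes described here encode the core machinery that builds an autophagosome and fuses it with the lysosome. They were taken by symbol from the table of read counts, and all 40 were found among its 60606 genes. They fall into 6 functional steps, namely the ULK1 complex (5 genes), the phosphatidylinositol 3-kinase (PI3K) complex with its regulators (8 genes), ATG9, ATG2 and the WIPI proteins (7 genes), the conjugation enzymes (10 genes), the ATG8 homologues (5 genes) and the fusion factors (5 genes). The counts come from HEK293, an established human embryonic kidney line, grown in serum-containing medium and transfected with lipid reagent. The 4 tDR libraries are from cells given a synthetic copy of the tRNA-derived RNA (tDR) that forms the 3' end of tRNA-Asp-GTC, and the 4 control libraries from cells given a scrambled RNA. Both RNAs were used at 50 nM and the cells were harvested after 48 hours. The model is therefore a single line with a transfected synthetic RNA, and nothing in the labels tells whether a group's libraries are separate cultures. The p-values therefore measure the spread between these libraries only, and that spread may be technical.

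Autophagy encloses cytoplasm in a double membrane and delivers it to the lysosome. The ULK1 kinase complex starts the process, a PI3K complex marks the growing membrane with phosphatidylinositol 3-phosphate (PI3P), and ATG9 vesicles, ATG2 lipid transfer proteins and PI3P-binding WIPI proteins expand it. Enzymes related to those of ubiquitin then attach ATG12 to ATG5 and attach the small ATG8 proteins, LC3 and GABARAP, to membrane lipid, after which SNARE proteins and tethers join the closed autophagosome to the lysosome. Much of this machinery is controlled after transcription, by phosphorylation and by turnover of the lipid-bound proteins, so RNA levels describe only the supply of its parts.

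Of these genes 5 passed the test, and their changes were small. Of the 37 that passed the filter on low counts, ULK1, ATG2A and EPG5 rose with the tDR, ATG3 and ATG12 fell, and 32 did not pass the test (quasi-likelihood test in edgeR, with p-values adjusted by Benjamini-Hochberg over all 17184 genes tested and called under 0.05). Over all genes tested, 12.8% were called higher and 11.4% lower, 24.3% together, against 13.5% of these 37. At an unadjusted p under 0.05 the count was 14 of the 37, beside 6170 of all 17184 genes. Among the 10887 genes for which under 10% of the tDR counts were estimated to be background, 5.70% were called higher and 17.6% lower. The genes described here include 33 of those, with 3 higher and 2 lower. Both the shares over all genes and these calls depend on the processing. With library size alone 7 of the 37 were higher and 1 lower (3295 and 907 of all genes). When gene length and GC content were corrected for, 1 was higher and 5 lower (1965 and 2672 of all genes). DESeq2, which differs in scaling, test and filter at once (34642 genes entered it), called 1433 of all genes higher and 2131 lower, and edgeR without the filter called 1821 and 2295. In bulk RNA, fewer cells of a type and less RNA per cell cannot be told apart.

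The fold changes of the 37 genes ran from -0.42 to 0.41 on the log2 scale, with a median of 0.01 beside 0.02 for all genes tested. In 25 of them the log2 fold change was within 0.2 of 0. The 40 genes together held between 0.197% and 0.207% of all counts in the control libraries and between 0.206% and 0.215% in the tDR libraries. These are shares of the raw totals, whereas the fold changes use library sizes scaled by edgeR (TMM). The scaling factor was higher in each tDR library than in any control, which lowers tDR levels relative to raw shares. The higher raw shares are therefore no evidence of a rise on the scale of the fold changes.

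**Figure D1:**
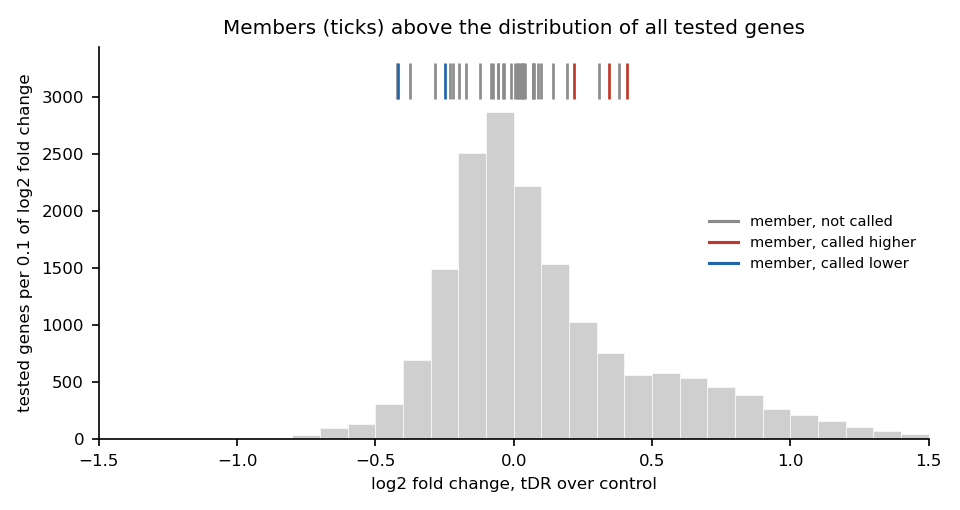
Grey bars count the tested genes in each 0.1 step of the log2 fold change (horizontal axis, tDR over control). The 94 genes that are not drawn all lie above 1.5. Each tick above the bars is 1 of the 37 tested autophagosome genes. Ticks are red if called higher, blue if called lower and grey if not called. The ticks lie between -0.42 and 0.41, on either side of 0.

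Total counts ranged from 5848305 to 10557740 per library. The 37 tested genes had between 4 and 1537 counts in a library. Background reads, estimated from olfactory receptor genes, amounted to 0.0141 to 0.0185 CPM (the count scaled to a common library total) per kb of gene span in the control libraries and 0.0232 to 0.0256 in the tDR libraries, higher in each tDR library than in any control. That background would make up 0.619% to 24.0% of the tDR counts of the tested genes, with a median of 3.63%, and at most 4.95% for the 5 called genes. All 7 genes listed as markers of HEK293 were detected, at mean levels between 5.24 CPM (LHX1 with the tDR) and 230 CPM (NEFM in controls). KRT8 and PAX2 rose, NEFL and NEFM fell, and the sum of the list was 530 to 581 CPM in controls and 468 to 512 CPM with the tDR. Of 10 markers of other cell types, among them blood, liver, endothelium, fibroblast and muscle, 5 passed the filter. PECAM1, CDH5 and COL1A1 rose, and the other 2 were not called. The summed level of the 10 was 21.7 to 29.7 CPM in controls and 37.8 to 42.7 CPM with the tDR. The part of the cells these markers stand for in the results below was not tested, and subtraction of the background is among the alternatives.

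Windows before RefSeq transcript starts are shown for 4 of the 5 called genes, which moved in opposite directions. For EPG5, the other called gene, no window was available. ATG3 and ATG12 fell, and ULK1 and ATG2A rose. RefSeq gave 38 windows of 250 bases before a transcript start for 33 of the 40 genes (build GRCh38.p14). Those starts can differ from the gene ends in GENCODE 29, the source of the gene coordinates given below. By the GENCODE coordinates the ATG12 window lies wholly inside the gene, and the ATG3 and ATG2A windows lie partly inside theirs. Capitals mark CACGTG (the E-box), CCAAT and GGGCGG (the GC box) on either strand, and bases run 5′ to 3′ on the gene's own strand.
ATG3, chr3:112561963-112562212, minus strand: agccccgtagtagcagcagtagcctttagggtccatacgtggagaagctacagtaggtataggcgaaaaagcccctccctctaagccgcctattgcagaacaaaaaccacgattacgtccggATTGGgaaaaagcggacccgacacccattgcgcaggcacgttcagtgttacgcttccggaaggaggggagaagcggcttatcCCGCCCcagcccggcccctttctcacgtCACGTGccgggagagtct
ATG12, chr5:115841566-115841815, minus strand: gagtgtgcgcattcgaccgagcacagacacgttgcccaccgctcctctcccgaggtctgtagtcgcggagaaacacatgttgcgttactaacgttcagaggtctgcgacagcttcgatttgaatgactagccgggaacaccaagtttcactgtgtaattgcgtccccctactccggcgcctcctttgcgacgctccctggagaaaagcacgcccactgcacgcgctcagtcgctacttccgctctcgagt
ULK1, chr12:131894372-131894621, plus strand: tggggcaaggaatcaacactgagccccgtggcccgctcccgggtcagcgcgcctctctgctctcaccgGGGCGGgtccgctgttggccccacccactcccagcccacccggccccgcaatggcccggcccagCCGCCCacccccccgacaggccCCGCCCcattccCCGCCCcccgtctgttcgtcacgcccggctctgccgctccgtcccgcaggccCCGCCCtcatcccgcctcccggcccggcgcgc
ATG2A, chr11:64917210-64917459, minus strand: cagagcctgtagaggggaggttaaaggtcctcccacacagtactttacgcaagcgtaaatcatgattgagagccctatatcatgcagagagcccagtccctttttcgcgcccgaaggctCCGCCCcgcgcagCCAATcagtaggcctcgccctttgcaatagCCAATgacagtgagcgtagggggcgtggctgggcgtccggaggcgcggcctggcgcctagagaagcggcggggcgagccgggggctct

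The ATG3 window holds 1 match of each motif, the ULK1 window 5 GC boxes, the ATG2A window 2 CCAAT boxes and 1 GC box, and the ATG12 window none of them. The sequence TCACGTGA, the centre of the CLEAR element named for the TFEB family of lysosome and autophagy regulators, contains the E-box and was in 1 of the 38 windows (NRBF2), or 2.63%, beside 0.854% of all 35116 RefSeq windows of the same length. The E-box alone was in 10.5% of the windows of these genes (ATG3, ATG14, NRBF2 and SNAP29) and 6.35% of all. CCAAT was in 36.8% and 32.0%, and GGGCGG in 63.2% and 42.6%. Windows of these genes had a median GC content of 63.0%, beside 58.0% for all. Such matches describe the letters in these windows and nothing about the binding of a factor.

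In the ULK1 complex, which starts autophagosome formation, the gene for the kinase ULK1 itself was the only 1 of 5 called. ULK1 (chromosome 12, 131894651 to 131923167, GRCh38) stood at 35.1, 34.5, 38.9 and 43.2 CPM in control replicates 1 to 4 and at 52.3, 41.4, 48.2 and 51.4 CPM in tDR replicates 1 to 4. The groups overlapped, since control replicate 4 lay above tDR replicate 2. Its level went from 37.9 ± 4.02 to 48.3 ± 4.96 CPM (SD, n = 4), a log2 fold change of 0.35 ± 0.09 (SE; edgeR, adjusted p = 0.00313). With length and GC content corrected for, the value was 0.22 and missed the threshold (edgeR, adjusted p = 0.0508).

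The other subunits did not pass. RB1CC1, which encodes the scaffold FIP200 and had the highest level per length of this complex in controls (19.5 ± 0.927 CPM per kb of exon), was at 153, 153, 138 and 151 CPM in controls and 136, 139, 145 and 128 CPM with the tDR. Those groups overlapped, and its log2 fold change was -0.12 (edgeR, adjusted p = 0.106). Without control replicate 3, the lowest control, it was -0.17 and passed (edgeR, adjusted p = 0.039). ATG13 and ATG101, which form the regulatory part of the complex, had log2 fold changes of 0.10 and 0.02. ULK2, the second kinase, was lower per length than ULK1 in controls (1.94 and 4.99 CPM per kb) and had a log2 fold change of 0.03 ± 0.128 (SE).

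Ratios within a library are given for ULK1 and ULK2, ATG2A and ATG2B, and ATG3 and ATG10. These pairs were chosen after their values were seen, so the ratios are a description with no test. The log2 ratio of ULK1 to ULK2 was 1.00 ± 0.342 in controls and 1.29 ± 0.0965 with the tDR (SD, n = 4), and the groups overlapped, with control replicate 3 at 1.37 above all but 1 of the tDR libraries. The rise of ULK1 is not shown to differ from the value of ULK2.

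None of the 8 genes of the PI3K complex and its regulators was called by edgeR, DESeq2 or limma-voom, and 1 (NRBF2) had an unadjusted p under 0.05 in edgeR. Their log2 fold changes ran from -0.22 to 0.09, with a median of 0.0091. The catalytic subunit PIK3C3 (VPS34) had 0.09 ± 0.0689, its regulatory subunit PIK3R4 (VPS15) 0.0041 ± 0.0633, and BECN1 (Beclin 1), the shared scaffold subunit, 0.04 ± 0.0789 (SE). The 95% interval of BECN1 (normal approximation) ran from -0.11 to 0.19, a range that includes 0 and small differences in either direction.

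ATG14, which directs it to the forming autophagosome, had a log2 fold change of -0.08, and UVRAG, which directs it to endosomes, 0.03. UVRAG had the highest level per length of all 37 genes in controls, 20 ± 1.58 CPM per kb, with values of 132, 114, 125 and 138 CPM in controls and 131, 116, 134 and 139 CPM with the tDR. Those values lay in the same range in both groups. RUBCN (Rubicon), an inhibitor of the complex, was at -0.06 and AMBRA1, which links BECN1 to the ULK1 complex, at 0.01.

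NRBF2, a subunit that binds ATG14 complexes, was the exception in its spread. It stood at 34.8, 34.9, 31.9 and 32.5 CPM in controls and at 29.1, 28.6, 27.5 and 30 CPM with the tDR. Each tDR library thus lay below each control, as in 10.8% of all genes tested. The log2 fold change of -0.22 did not pass (edgeR, adjusted p = 0.0885).

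**Figure D2:**
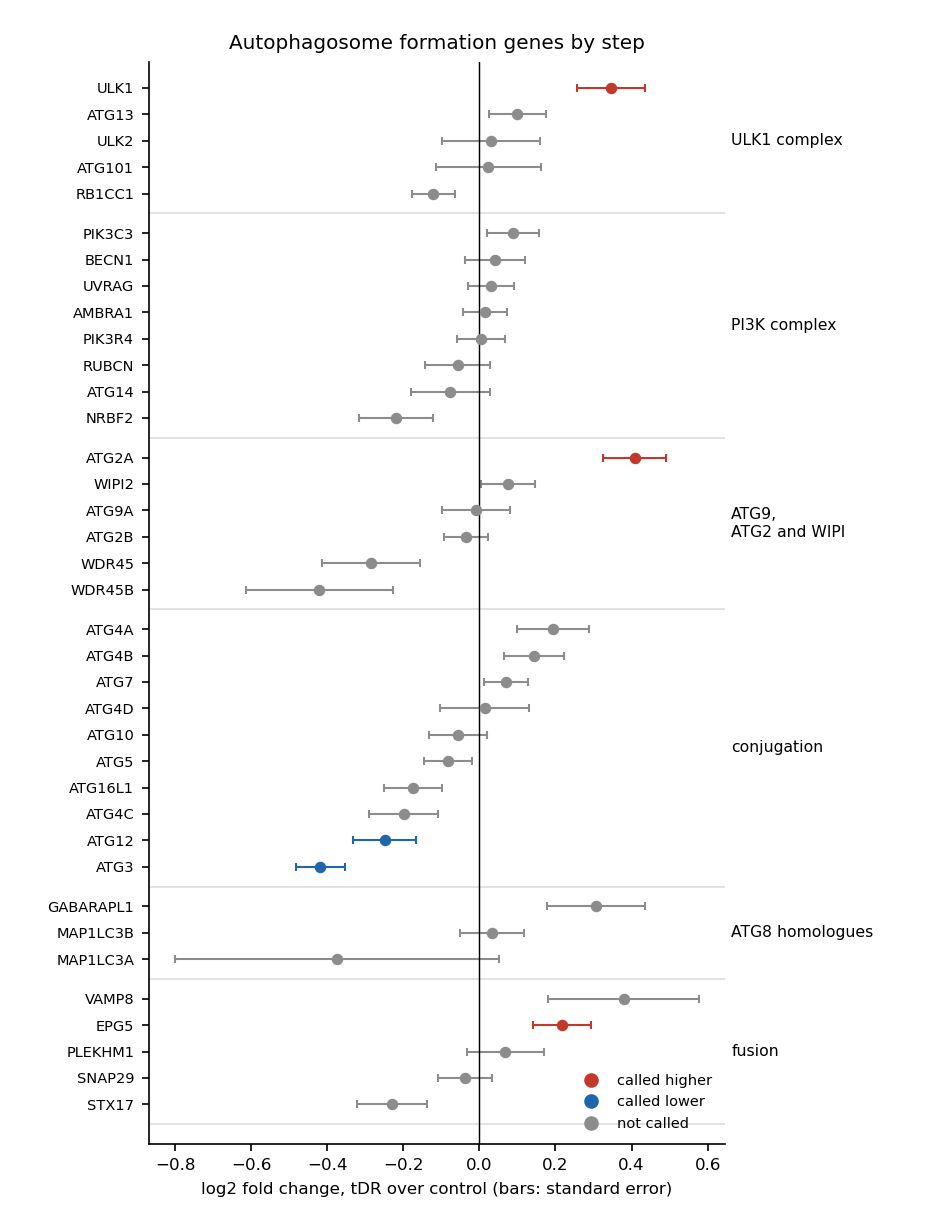
Log2 fold change of tDR over control (horizontal axis) for each of the 37 tested genes, grouped by functional step, with bars for the standard error; red marks genes called higher, blue genes called lower and grey genes not called. Called genes are ULK1 and ATG2A at 0.35 and 0.41, EPG5 at 0.22, and ATG3 and ATG12 at -0.42 and -0.25.

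Among the genes for membrane expansion, ATG2A rose and 5 others did not pass. ATG2A (chromosome 11, 64894546 to 64917248) encodes a protein that carries lipids from the endoplasmic reticulum (ER) into the growing membrane. It stood at 38.4, 51.0, 45.0 and 47.3 CPM in controls and at 58.1, 58.8, 67.4 and 56.8 CPM with the tDR. Each tDR library lay above each control, as in 11.8% of all genes tested. This is a log2 fold change of 0.41 ± 0.0831 (SE; edgeR, adjusted p = 0.000186), a 1.33-fold level. The call held under each of the 15 alternatives, with values from 0.28 (length and GC content corrected for) to 0.49 (library size alone).

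Its paralogue ATG2B, with the same activity, was at 115, 107, 116 and 116 CPM in controls and 112, 112, 111 and 108 CPM with the tDR. These ranges overlapped, and the log2 fold change was -0.04 ± 0.0579 (SE). The log2 ratio of ATG2A to ATG2B went from -1.33 ± 0.212 to -0.88 ± 0.106 (SD, n = 4), and each tDR library was above each control, as in ATG2A itself. In controls ATG2B was also the more abundant of the pair per length, at 7.69 against 5.77 CPM per kb, while with the tDR they stood at 7.5 and 7.66 CPM per kb.

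ATG9A, the lipid scramblase of the seed vesicles, was at 35.5, 42.8, 46.6 and 40.7 CPM in controls and at 42.0, 41.9, 39.0 and 41.0 CPM with the tDR. It had the highest level per length of this step in controls (8.76 CPM per kb), and its tDR values lay within the range of the controls. Its count is uncertain, since 38.8% of its annotated exon length is shared with another gene model on the same strand. WIPI2, the PI3P-binding protein that recruits the conjugation machinery, had a log2 fold change of 0.07.

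WDR45 and WDR45B, which encode the PI3P-binding proteins WIPI4 and WIPI3, had the lower levels of this step and negative values. WDR45 had a log2 fold change of -0.28 and WDR45B of -0.42 ± 0.193 (SE), neither of which passed (edgeR, adjusted p = 0.1 and 0.104). In WDR45B the level was 8.61 ± 0.708 CPM in controls and 6.46 ± 1.18 CPM with the tDR, with an estimated 6.17% and 12.9% of the counts from background. WDR45 passed after correction for length and GC content (-0.32), without control replicate 2 (-0.36) and without tDR replicate 1 (-0.36). The WDR45 count is uncertain, since 13.9% of its annotated exon length is shared with another gene model on the same strand. WIPI1 was listed at 0 in all 8 libraries.

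The conjugation step held both genes that fell in the reported setting, 2 of its 10, beside 11.4% called lower over all genes tested. ATG3 (chromosome 3, 112532509 to 112562046), the E2-like enzyme that transfers ATG8 proteins to lipid, stood at 121, 108, 116 and 103 CPM in controls and at 80.8, 82.4, 93.0 and 78.5 CPM with the tDR. Each tDR library was below each control. This is a log2 fold change of -0.42 ± 0.0646 (SE; edgeR, adjusted p = 1.66e-06), a level 0.748 times that of the controls. ATG3 kept its call under each of the 15 alternatives, with values from -0.48 to -0.34.

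ATG12 (chromosome 5, 115828200 to 115841858), the ubiquitin-like protein joined to ATG5, was at 48.5, 47.6, 49.6 and 49.9 CPM in controls and at 37.4, 43.3, 41.7 and 41.7 CPM with the tDR. Again no tDR library reached the lowest control. Its log2 fold change was -0.25 ± 0.0829 (SE; edgeR, adjusted p = 0.0216). The call was lost with library size alone (-0.17), with background subtracted (-0.20) and without tDR replicate 1, the lowest library (-0.22; edgeR, adjusted p = 0.0614).

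The partners of ATG3 and ATG12 did not pass. ATG7, the E1-like enzyme that activates both ATG12 and the ATG8 proteins, had a log2 fold change of 0.07, and ATG5, the acceptor of ATG12, of -0.08. ATG16L1, which binds the ATG12 and ATG5 conjugate and places it on the membrane, was at 65.5 ± 5.82 CPM in controls and 57.8 ± 4.67 CPM with the tDR. Its log2 fold change of -0.17 (edgeR, adjusted p = 0.0888) passed after correction for length and GC content (-0.21), without control replicate 4 (-0.24) and without tDR replicate 2 (-0.23).

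ATG10, the E2-like enzyme for ATG12, was at 59.8 ± 3.56 and 57.5 ± 4.91 CPM, and an estimated 13% of its tDR counts were background. The log2 ratio of ATG3 to ATG10 went from 0.90 ± 0.078 in controls to 0.54 ± 0.0453 with the tDR (SD, n = 4). Each tDR library was below each control in this ratio, as in ATG3 itself. Together the 10 conjugation genes summed to 663 ± 25.4 CPM in controls and 622 ± 18.9 CPM with the tDR, ATG3 alone being 112 and 83.7 CPM of these. The other 5 sums had slightly higher means with the tDR, from 570 to 572 CPM for the PI3K complex to 63.1 to 67.6 CPM for the ATG8 homologues.

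The 4 ATG4 proteases, which trim ATG8 proteins before conjugation and release them from lipid, had values on either side of 0. The log2 fold changes were 0.19 ± 0.0952 for ATG4A, 0.14 ± 0.0783 for ATG4B, -0.20 ± 0.09 for ATG4C and 0.01 ± 0.117 for ATG4D (SE), and none passed. In ATG4B, the main protease of LC3, each tDR library (52.8 to 56.1 CPM) was above each control (46.6 to 52.5 CPM). Of the 37 tested genes, 3 were separated upward in this way and 3 downward. Over all genes tested the shares were 11.8% and 10.8%. With library size alone ATG4A and ATG4B passed (0.28 and 0.23), as did ATG7 (0.15). ATG4C passed without control replicate 2 (-0.30), the control with the lowest level at 37.4 CPM.

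**Figure D3:**
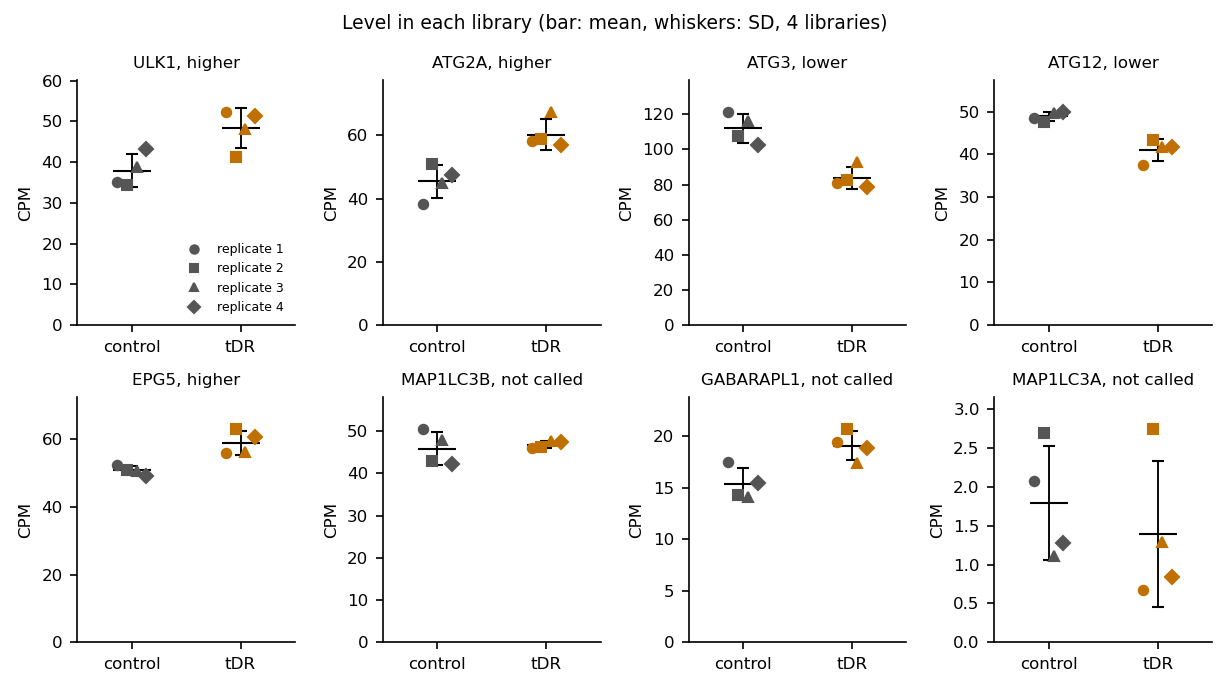
CPM in each of the 8 libraries (vertical axes start at 0) for the 5 called genes and the 3 tested ATG8 homologues; symbols stand for the replicate number, horizontal bars for the mean and whiskers for the SD of 4 libraries. The groups do not overlap in ATG2A, ATG3, ATG12 and EPG5, and overlap in ULK1 and in the ATG8 homologues.

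The ATG8 homologues are the ubiquitin-like proteins that coat the autophagosome membrane and hold its cargo receptors. None of the 3 tested was called by edgeR, DESeq2 or limma-voom, and 1 (GABARAPL1) had an unadjusted p under 0.05 in edgeR. MAP1LC3B (chromosome 16, 87383995 to 87404779), which encodes the marker protein LC3B, was at 50.5, 42.9, 47.8 and 42.3 CPM in controls and at 46.1, 46.2, 47.7 and 47.5 CPM with the tDR. The tDR libraries lay inside the range of the controls. The log2 fold change of 0.03 had a 95% interval from -0.13 to 0.20.

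GABARAPL1 (chromosome 12, 10212458 to 10223130), a member of the GABARAP branch, stood at 17.5, 14.3, 14.1 and 15.4 CPM in controls and at 19.5, 20.7, 17.4 and 18.9 CPM with the tDR. The groups overlapped only in that control replicate 1 was just above tDR replicate 3. The log2 fold change of 0.31 ± 0.129 (SE) missed the threshold (edgeR, adjusted p = 0.0734), and it passed with library size alone (0.39), with background subtracted (0.37) and without control replicate 1 (0.37). Reads of GABARAPL1 and MAP1LC3B may be split with their near copies GABARAPL3 and MAP1LC3B2.

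MAP1LC3A had the lowest level of the 37 tested genes. Its values were 2.08, 2.69, 1.11 and 1.28 CPM in controls and 0.677, 2.74, 1.3 and 0.839 CPM with the tDR, from 4 to 22 counts in a library. Both groups spread over more than their difference, and an estimated 24.0% of its tDR counts were background. GABARAPL2 was listed at 0 in all 8 libraries and GABARAP had 1, 0, 0 and 0 counts in controls and 0, 1, 6 and 0 with the tDR. Of the GABARAP exon length 30.5% is shared with another gene model on the same strand. How reads that fall in several genes were treated is not stated in the labels, and 7 of the 65 pathway genes below were also listed at 0 throughout, so these zeros set no limit on the level of GABARAP, GABARAPL2 or WIPI1.

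Of the 5 fusion factors EPG5 rose and 4 did not pass. EPG5 (chromosome 18, 45847609 to 45967339), a tether that binds the late endosome and the autophagosome, was at 52.5, 50.9, 50.5 and 49.3 CPM in controls and at 55.9, 63.0, 56.2 and 60.7 CPM with the tDR. Each tDR library was above each control. The log2 fold change of 0.22 ± 0.0763 (SE; edgeR, adjusted p = 0.0308) was the called value nearest to the threshold. It lost its call under 8 of the 15 alternatives, namely DESeq2 (0.18), no filter on low counts (0.18), correction for length and GC content (0.11) and 5 left-out libraries: control replicate 2 (0.21), 3 (0.20) or 4 (0.19) and tDR replicate 2 (0.18) or 4 (0.20).

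STX17, the SNARE of the autophagosome itself, was the nearest on the other side of the threshold. Its level was 53.2, 40.5, 47.8 and 47.2 CPM in controls and 42.3, 46.7, 39.5 and 33.4 CPM with the tDR. These ranges overlapped, with a log2 fold change of -0.23 ± 0.0925 (SE; edgeR, adjusted p = 0.0598). STX17 passed with no filter on low counts (-0.27), after correction for length and GC content (-0.23), without control replicate 2 (-0.31) and without tDR replicate 2 (-0.32).

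SNAP29, the SNARE that bridges STX17 to the lysosome, had the highest level per length of this step in controls (14.1 CPM per kb). It stood at 73.3, 65.9, 70.2 and 70 CPM in controls and at 71.3, 63.8, 72.4 and 65.2 CPM with the tDR, with no separation of the groups. VAMP8, the lysosomal SNARE, had a log2 fold change of 0.38 ± 0.198 (SE) that rested largely on tDR replicate 2, at 12.9 CPM beside 6.87 to 8.30 CPM in the other tDR libraries and 6.04 to 7.46 CPM in controls. PLEKHM1, an adaptor that links RAB7 to the tethering complex HOPS, was at 0.07.

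**Figure D4:**
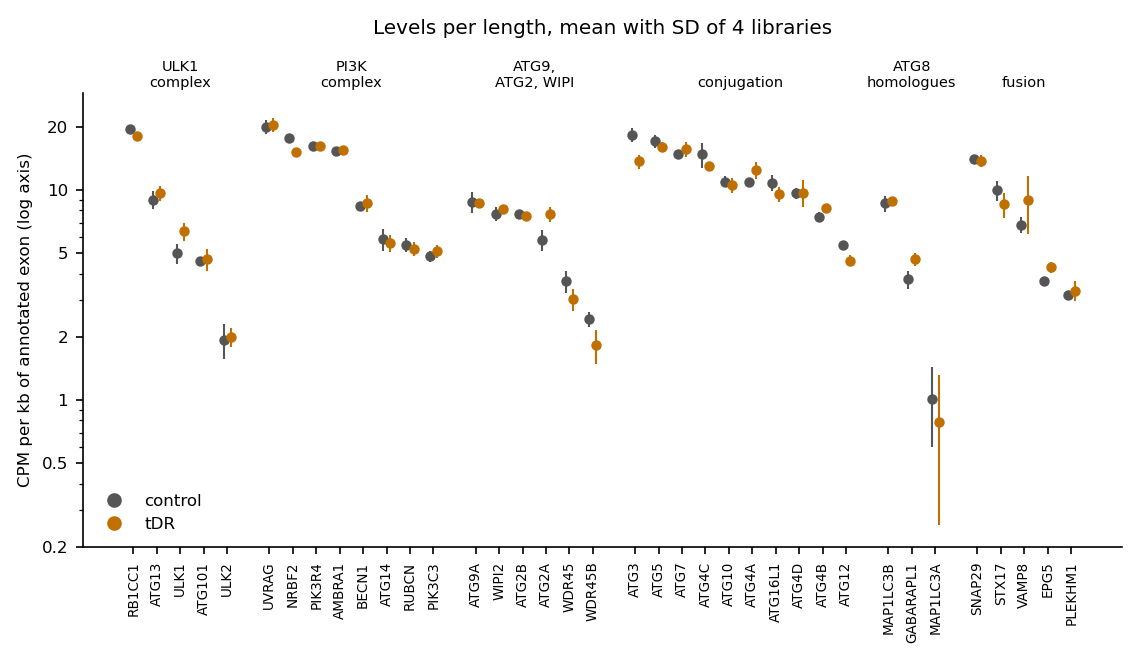
Mean level in control and tDR libraries as CPM per kb of annotated exon (vertical log axis) for the 37 tested genes, ordered by control level within each step, with the SD of 4 libraries as bars. Levels in controls run from 1.02 for MAP1LC3A to 20 for UVRAG, and in most genes both groups lie close together.

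Lists of other genes of the pathway, 65 genes in all, gave 54 tested genes, of which SESN2, TSC1 and ZFYVE1 rose, MLST8 fell and 50 did not pass (7.41% called, beside 24.3% of all genes). Their median log2 fold change was 0.02. With library size alone 14 were higher. Among 17 tested genes of the kinases upstream of ULK1 there were 2 higher and 1 lower. SESN2 (Sestrin 2), a leucine-sensing inhibitor of the kinase complex mTORC1, was at 40.3, 45.0, 51.0 and 42.5 CPM in controls and 54.7, 56.8, 57.9 and 56.8 CPM with the tDR. Each tDR library was above each control, and the log2 fold change was 0.35 ± 0.0812 (SE; edgeR, adjusted p = 0.00098). TSC1, which restrains mTORC1 through RHEB, had a log2 fold change of 0.17 (edgeR, adjusted p = 0.0487) and lost its call under 12 of the 15 alternatives, each left-out library among them.

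MLST8, a subunit shared by both mTOR complexes, went from 110 ± 9.67 to 88.6 ± 3.81 CPM (SD, n = 4), and each tDR library was below each control. Its log2 fold change was -0.31 ± 0.0639 (SE; edgeR, adjusted p = 0.000223). MTOR and RPTOR had log2 fold changes of 0.09 and -0.0082 and did not pass. The AMPK catalytic subunits PRKAA1 and PRKAA2, which phosphorylate ULK1 when energy is low, stood at -0.0016 and -0.02.

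Of 10 tested transcription regulators of autophagy and lysosome genes none was called by edgeR (3 had an unadjusted p under 0.05) and 1, FOXO3, was lower by DESeq2 and by limma-voom. FOXO3, a transcription factor that acts on several autophagy genes, was at 180, 164, 176 and 175 CPM in controls and at 162, 150, 163 and 157 CPM with the tDR. Each tDR library was below each control, and the log2 fold change of -0.14 just missed the threshold in edgeR (adjusted p = 0.0504) while DESeq2 gave -0.17 (adjusted p = 0.0153) and limma-voom -0.14 (adjusted p = 0.0465). TFEB had a log2 fold change of -0.04 and TFE3 of 0.22. Of 11 tested ER, lipid and PI3P factors ZFYVE1 rose, and limma-voom also called MTMR14, a PI3P phosphatase, higher (0.23). ZFYVE1 encodes DFCP1, the PI3P-binding protein that marks the omegasome, the ER site where autophagosomes form. It stood at 22.6, 19.7, 18 and 19.7 CPM in controls and at 23.4, 32.2, 30.2 and 31.8 CPM with the tDR. Each tDR library lay above each control, although tDR replicate 1 was close to them, and the log2 fold change was 0.56 ± 0.113 (SE; edgeR, adjusted p = 0.000163). Of 11 tested fusion partners none was called by edgeR (3 had an unadjusted p under 0.05) and 1 was lower by DESeq2, namely RAB7A, the small GTPase of late endosomes, at -0.11 in edgeR and -0.14 in DESeq2. The calls of SESN2, MLST8 and ZFYVE1 held under each of the 15 alternatives.

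**Figure D5:**
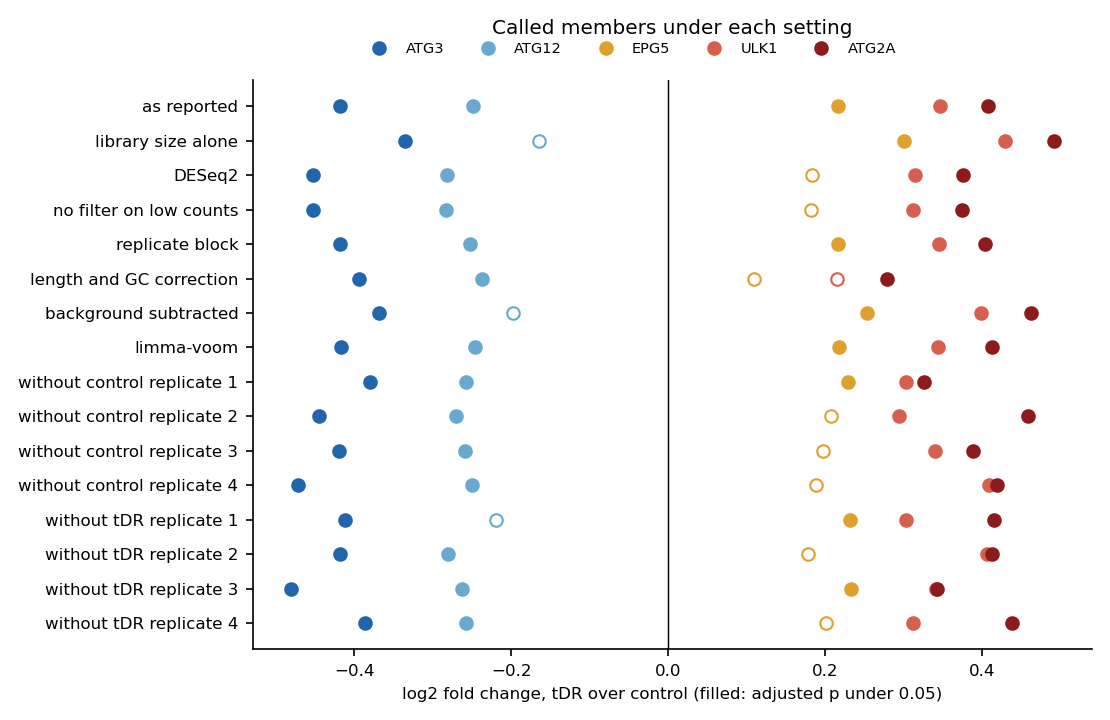
Log2 fold change of the 5 called genes (horizontal axis) under the reported setting and each of 15 alternatives (rows), with filled circles where the adjusted p was under 0.05 and open circles where it was not. ATG3 and ATG2A are filled in each row, ULK1 is open in 1, ATG12 in 3 and EPG5 in 8.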

How the data were processed

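Total RNA was made into stranded low-input libraries, per the labels' protocols, and what the authors deposited is a single table of raw counts, whole numbers for each gene and library. The submitters' processing notes name STAR 2.7.8a, featureCounts 2.0.2, cutadapt 2.10, DESeq2 1.30.1 and FastQC 0.11.9, with builds GRCh38.p13 and hg38. Their settings, the annotation and how strand, introns and shared reads were handled are not stated in the labels, so genes that overlap, lie antisense or have near copies have uncertain counts. Among the tested autophagosome genes, exon overlap with genes on the other strand was largest in ATG101 (19.2%), ATG7 (18.1%), BECN1 (17.1%) and ATG4D (15.0%).

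Each column matched 1 library by name. Groups were compared by quasi-likelihood in edgeR 4.0.16 (R 4.3.3) with TMM scaling, edgeR's filter on low counts, and group as the only term, on all 8 libraries; p-values were Benjamini-Hochberg adjusted over 17184 genes. CPM use TMM-scaled library sizes. Level per kb divides by the union of exons in GENCODE 29, which also gave coordinates (GRCh38, 1-based). Background is the count density over the span of 381 olfactory receptor genes. Alternatives were library size alone, DESeq2 1.42.0, no filter, a replicate block, a spline correction for exon length and GC content, background subtraction, limma-voom (limma 3.58.1) and each library left out. The fits were tested on simulated data. All pairs of libraries differed by more than counting noise (chi-square per degree of freedom 2.13 to 7.36).

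Genes and lists were chosen with earlier results of these data known. Values per library are given for called genes, the tested ATG8 homologues and the gene of each step with the highest level per kb. Others shown that way (NRBF2, ATG2B, STX17 and FOXO3) were added after their values were seen. From each pathway list the called genes are named, with a few others for context.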

Additional observations from a re-analysis of the deposited data

Results flagged for a closer look

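In 3 of the 74 groups of 4 libraries examined (37 genes in both groups), 1 library stood apart from the other 3 by more than the critical value of Dixon's ratio at the 95% level. Chance gives this in about 1 in 20 groups. Control replicate 3 was low in RB1CC1, at 138 CPM beside 151 to 153 CPM in the other controls (ratio 0.847). Control replicate 2 was low in PIK3R4, at 81.2 CPM beside 87.7 to 88.9 CPM (ratio 0.848), and in ATG2B, at 107 CPM beside 115 to 116 CPM (ratio 0.901).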

How the results depend on the processing

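The 5 called genes kept their direction under each of the 15 alternatives; the calls lost are given beside each gene. Of 32 uncalled genes 9 passed under some alternative. Over all genes, DESeq2 called 1433 higher, background subtraction 1118 higher and 1095 lower, and library size alone 907 lower. Of the autophagosome genes, library size alone called 7 higher and 1 lower, the length and GC correction 1 and 5, and background subtraction 1 lower; left-out libraries gave 2 to 5 lower, with 5 without control replicate 2 and 4 without tDR replicate 2. Of the upstream and partner genes 14 were higher with library size alone, and the count lower was 3 with DESeq2, 3 with no filter, 4 after length and GC correction, 2 with limma-voom and 1 to 3 over left-out libraries (3 without control replicate 2, 2 without tDR replicate 1). Under library size alone, medians of the log2 fold change in the ULK1, PI3K, ATG9 with ATG2 and WIPI, conjugation and fusion steps were 0.11, 0.093, 0.061, 0.014 and 0.15; after length and GC correction those of the PI3K, ATG9 and fusion steps were -0.036, -0.10 and -0.042; with background subtracted the ATG9 and ATG8 steps were at 0.028 and 0.22. Over left-out libraries the ULK1 step ran from -0.014 to 0.13, conjugation from -0.11 to -0.050, the ATG8 homologues from -0.019 to 0.23 and fusion from 0.0078 to 0.11. MAP1LC3A did not pass the filter with background subtracted, without control replicate 1 or without control replicate 2. The ATG8 medians of 0.22 and 0.23 thus cover only MAP1LC3B and GABARAPL1, and are not medians over the same genes as the reported value. Changes of sign were seen only in uncalled genes near 0. With library size alone ATG14 was at 0.0066, RUBCN 0.026, ATG9A 0.076, ATG2B 0.047, ATG5 0.0012, ATG10 0.028 and SNAP29 0.045. After length and GC correction ULK2 was at -0.048, ATG101 -0.017, BECN1 -0.00059, PIK3R4 -0.010, UVRAG -0.015, AMBRA1 -0.056, WIPI2 -0.00050, ATG4D -0.061 and PLEKHM1 -0.042. With no filter ULK2 was at -0.0040, ATG101 -0.012, PIK3R4 -0.030, UVRAG -0.0044, AMBRA1 -0.020, ATG4D -0.020 and MAP1LC3B -0.00098, and with DESeq2 ATG101 -0.0087, PIK3R4 -0.029, UVRAG -0.0032, AMBRA1 -0.019, ATG4D -0.020 and MAP1LC3B -0.00030. With background subtracted ATG9A was at 0.046, ATG2B 0.010 and SNAP29 0.013, and with limma-voom ATG9A 0.0055. Over left-out libraries ULK2 ran from -0.071 to 0.13, ATG101 from -0.052 to 0.087, BECN1 from -0.0044 to 0.10, PIK3R4 from -0.035 to 0.023, UVRAG from -0.028 to 0.072, AMBRA1 from -0.015 to 0.033, ATG9A from -0.081 to 0.032, ATG4D from -0.050 to 0.10 and MAP1LC3B from -0.019 to 0.081. The causes were not tested.

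Replicate numbers share no stated culture or day, and same-numbered libraries did not deviate together (correlations of -0.045, 0.092, -0.030 and -0.0081 over 13019 genes). With the replicate block the autophagosome genes again had 3 higher and 2 lower, and of all calls named here TSC1 alone was lost (0.17).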

Other observations

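Paralogues that are not among the 40 genes were counted as well. Of 9 such genes 5 were tested and none was called by edgeR, DESeq2 or limma-voom (1, ULK4, had an unadjusted p under 0.05 in edgeR). ULK3, a kinase related to ULK1, stood at 31.8 CPM in controls and 36.3 CPM with the tDR, and ULK4, a related pseudokinase, at 73.6 and 80.6 CPM, where each tDR library was above each control and an estimated 21.6% of the tDR counts were background. ATG16L2 was at 11.0 and 11.9 CPM, RUBCNL at 5.84 and 6.82 CPM (an estimated 33.2% background with the tDR) and MAP1LC3B2 at 2.50 and 3.18 CPM (21.4%). All 5 had positive log2 fold changes, from 0.11 to 0.36.

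The 7 upstream and partner genes listed at 0 in all 8 libraries were AKT1S1, PRKAG1, SESN3, FLCN, FNIP1, EI24 and VPS33A. AKT1S1 encodes an inhibitor of mTORC1 and PRKAG1 a subunit of AMPK. As for WIPI1 and GABARAPL2, these zeros set no limit on their levels.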
